A study of Mus musculus with 18 samples.

Results

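The genes described here encode the glutathione-dependent and peroxide-removing enzymes of the mouse: glutathione S-transferases (GSTs), glutathione peroxidases, peroxiredoxins, superoxide dismutases, catalase, thioredoxin and glutathione reductases, the enzymes that make glutathione, and both glyoxalases. They were picked by gene symbol alone, and 52 of the 20985 rows of the deposited table matched. RNA sequencing had been done on whole testis of ICR mice aged 10 weeks, with 18 libraries in 6 groups of 3. All values below are FPKM, reads scaled to transcript length and library size, so levels can be compared between genes.

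Of the 6 groups, 4 are labelled as high-fat diet (HFD): HFD-AOS, with AOS at 10 mg/kg; HFD-AOSFMT, with FMT labelled as AOS at 10 mg/kg; HFD-conFMT, with FMT labelled as control; and HFD alone. The other groups are AOS at 10 mg/kg and a group labelled only as control. The labels do not spell out AOS or FMT, which are given as labelled, and they name no batch, diet length or donor. Nor is it stated that the 3 libraries of a group are different animals, so p-values reflect only how far these libraries spread, which may be technical. The title asks whether FMT labelled AOS counters effects of the diet on the testis.

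Reactive oxygen species arise in mitochondria and at membranes. Superoxide dismutases turn superoxide into hydrogen peroxide, which catalase, peroxiredoxins and glutathione peroxidases then reduce. GSTs couple glutathione to reactive lipids and foreign compounds, and NADPH-dependent reductases return glutathione and thioredoxin to their working state. In the testis this chemistry has a further role, since Gpx4 protein is cross-linked into the mitochondrial sheath of the sperm midpiece, and several family members are made mainly in germ cells. Many of these genes can be driven by the factor Nrf2, which binds antioxidant response elements in promoters.

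The response-element core was searched as TGACNNNGC on both strands of the 250 bases before each RefSeq gene start (GRCm38.p6). It occurred in 8 of the 46 members with a RefSeq window (17.4%), against 11.5% of 27025 genes. Those members were Gclm, Gsta3, Gstm5, Gstm7, Mgst1, Prdx1, Sod1 and Txnrd1. The matches before Gstm5, the most abundant member, before Sod1, whose values are described below, and before Gclm and Txnrd1, well-known Nrf2 targets, are shown with the core in capitals. A match is a string of letters and not a measured binding site.
Gstm5 (chr3:107895802-107895830, plus strand): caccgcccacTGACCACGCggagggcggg
Sod1 (chr16:90220696-90220724, plus strand): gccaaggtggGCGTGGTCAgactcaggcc
Gclm (chr3:122245413-122245441, plus strand): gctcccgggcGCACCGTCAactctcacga
Txnrd1 (chr10:82859104-82859132, plus strand): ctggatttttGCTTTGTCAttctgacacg
In the Sod1, Gclm and Txnrd1 stretches the core lies on the opposite strand, so its reverse complement is in capitals. Another common promoter element, CCAAT, was found in 26 of the 46 windows (56.5%), against 37.5% of all genes. Hagh, the member that passed a test below, held no TGACNNNGC. Its RefSeq start lies head to head with the start of Fahd1, a mitochondrial acylpyruvase gene on the minus strand, in the GENCODE annotation. In GENCODE the Hagh gene itself begins further upstream, at position 24840143, and overlaps 1 gene. The 125 bases between the RefSeq start of Hagh and the GENCODE start of Fahd1 held 1 CCAAT. It lies on the minus strand and is in capitals here as ATTGG.
Hagh (chr17:24850365-24850489, plus strand): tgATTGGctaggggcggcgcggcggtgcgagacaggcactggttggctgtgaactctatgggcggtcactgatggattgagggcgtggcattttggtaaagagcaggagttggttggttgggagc

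In the libraries as a whole, sums ran from 588081 to 637005 FPKM. Relative depth, estimated from 171 genes, ran from 0.934 to 1.06. The estimate kept only low values near one common value per gene, so it could not show large differences in depth. The absolute depth is unknown. Testis markers were present in every group, with summed levels of 44830 to 66040 FPKM for elongating spermatid genes, 1628 to 1863 for round spermatids, 812.1 to 978.6 for Sertoli cells and 2566 to 4949 for Leydig cells. Such sums weigh the most abundant genes, and Prm1, Prm2, Tnp1 and Tnp2 made up most of the elongating spermatid sums. Libraries that stood apart were control 3 and HFD-conFMT 2, where 12 epididymal genes summed to 181 and 125 FPKM against 7.3 to 22.6 elsewhere. Most of these 2 sums was Crisp1, at 159 and 104 FPKM. Cst8, also on the epididymal list, was left out of the sums and had 240 to 345 FPKM over all libraries. All 3 HFD-conFMT libraries also stood apart in 5 adipocyte genes, which summed to 34.5, 41.1 and 34.9 FPKM, against 14.1 to 27.8 in the other 15. Among these genes, Fabp4, a fatty acid carrier, had 19.8, 27.4 and 19.1 FPKM there, and Adipoq, an adipocyte hormone, had 11.4 to 12.8 and lay within the range of the other libraries. One more pattern was found after the values were seen. In all 3 HFD-AOSFMT libraries, 6 of 14 kidney genes exceeded their level in each of the other 15 libraries. Kap, the kidney androgen-regulated protein gene, had 37.7, 31.5 and 36.3 FPKM there, and elsewhere was listed at 0 except for 0.15 in HFD 3. In whole tissue, fewer cells of a type and less RNA per cell cannot be told apart.

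The antioxidant genes were abundant in these testes and dominated by 2 of them. Together they made up 0.96% to 1.18% of the summed FPKM of a library. Mu class GSTs, 7 genes, held 51.4% of the family's level on average, and glutathione peroxidases, 8 genes, held 21%. Gstm5, a mu class GST, averaged 2600 FPKM and ranked 10 among all genes of the table. Gpx4, which reduces lipid hydroperoxides within membranes, averaged 1350 FPKM and ranked 26. The next member, Gstm1, averaged 537.

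**Figure D1:**
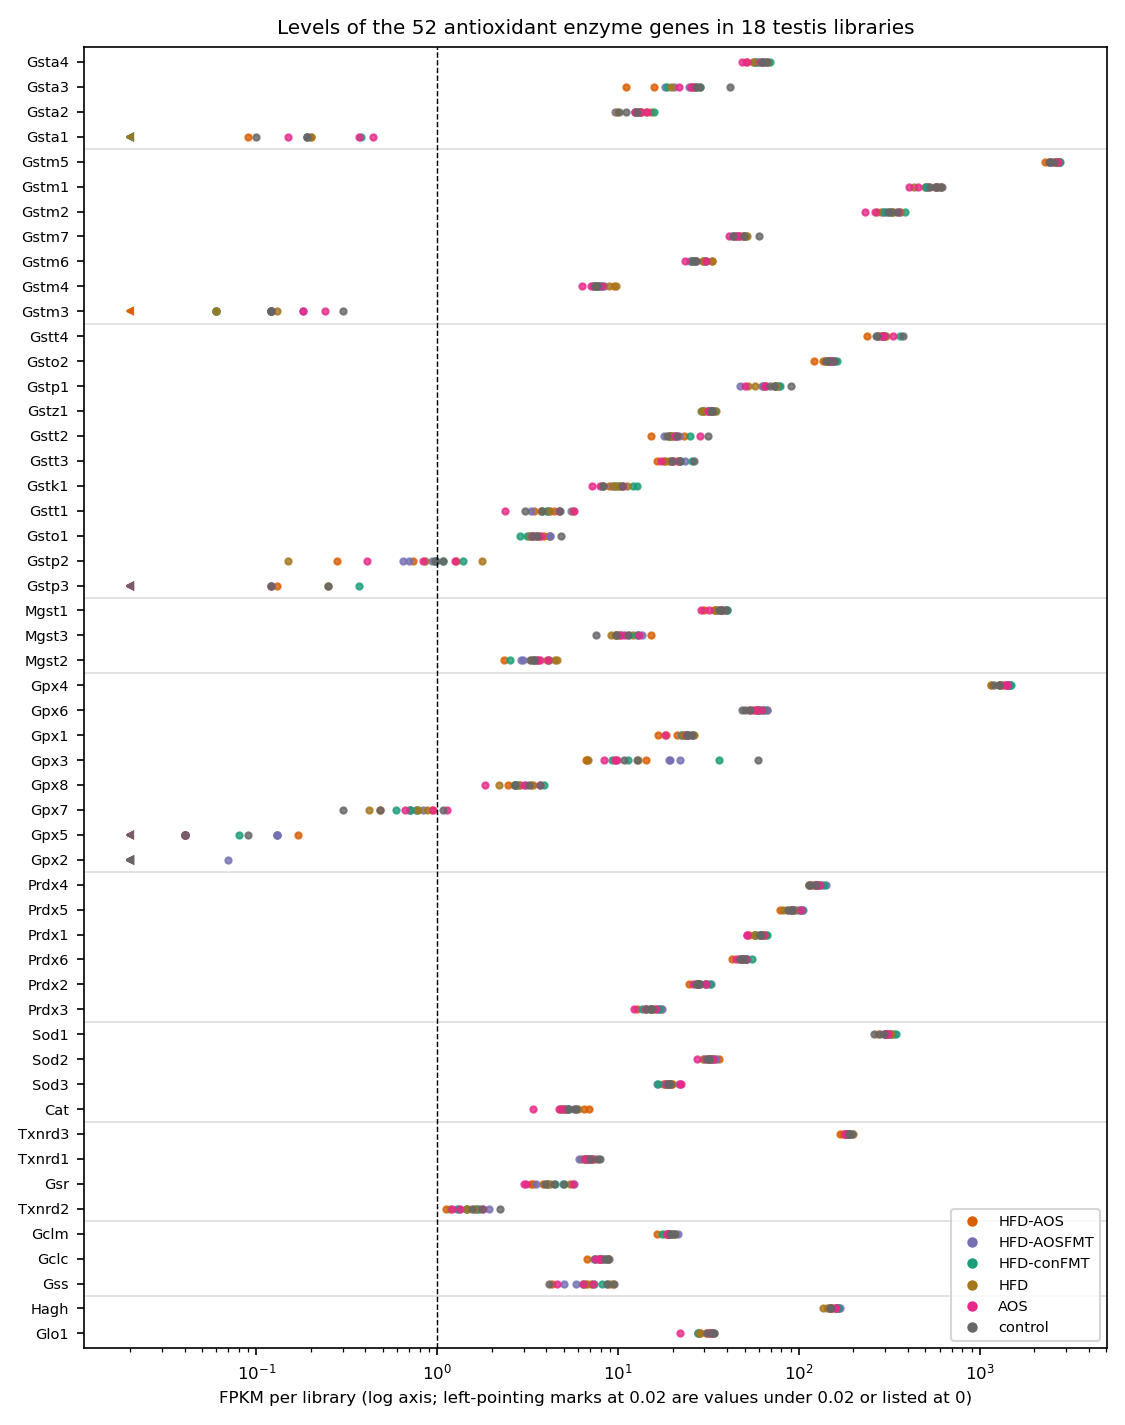
Level of each of the 52 members in FPKM (log axis) in the 18 libraries, 1 point per library, coloured by group and set out by enzyme family, with the filter of 1 FPKM as a dashed line. Gstm5 and Gpx4 stand at 1147 FPKM or more in every library, Gpx3 spreads from 6.61 to 59.4, and the 7 members left of the dashed line on average were not tested.

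Values of the abundant GSTs moved little between groups. Gstm5 had 2285, 2751 and 2614 FPKM in HFD-AOS, 2666, 2736 and 2739.9 in HFD-AOSFMT, 2794, 2741 and 2696 in HFD-conFMT, 2685, 2429 and 2651 in HFD, 2498, 2698 and 2432 in AOS, and 2563, 2443.5 and 2399 in control. Among the pairs of groups compared here, only HFD-conFMT and HFD did not overlap, with every HFD-conFMT library higher. More members of the mu cluster on chromosome 3, where all 7 mu genes lie, followed at 537 FPKM (Gstm1) and 315 FPKM (Gstm2) on average. Gstm1 had 519.7, 499.98 and 575 FPKM in HFD-AOS, 507, 519 and 617 in HFD-AOSFMT, 501, 598 and 572 in HFD-conFMT, 609, 564 and 431 in HFD, 453, 584 and 406 in AOS, and 609, 531 and 574 in control. Gstm2 had 284.7, 315 and 330.02 FPKM in HFD-AOS, 302, 291 and 360.3 in HFD-AOSFMT, 296, 328 and 384 in HFD-conFMT, 361, 327 and 272 in HFD, 264, 355 and 231 in AOS, and 349, 311 and 317 in control. Both genes were low in HFD 3, AOS 1 and AOS 3, and their groups overlapped in all comparisons. Of the 50-base words in Gstm1 transcripts, 18.9% also occur in another gene, so its reads may have been shared with near copies.

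Gstt4, a theta class GST, had 237, 289 and 304 FPKM in HFD-AOS, 290.4, 294 and 289 in HFD-AOSFMT, 294, 294 and 362 in HFD-conFMT, 277, 292 and 273 in HFD, 333, 295 and 289 in AOS, and 268, 269 and 376 in control. Its highest values were in control 3 and HFD-conFMT 3, and of the pairs compared only HFD-conFMT and HFD did not overlap. Gsto2, an omega class enzyme that can reduce dehydroascorbate, averaged 147 FPKM over the 18 libraries, Gstp1, the main pi class enzyme, 67.3, and Gsta4, which conjugates the lipid peroxidation product hydroxynonenal, 60.1. The remaining tested GSTs, microsomal ones included, averaged 3.52 to 47.5 FPKM. Gsta3, an alpha class GST, varied most among the GSTs tested, from 11 in HFD-AOS 1 to 41.5 in control 3.

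Among the other families, Sod1, the cytosolic superoxide dismutase, averaged 306 FPKM, Sod2, its mitochondrial relative, 32.1, Sod3, the secreted form, 19.1, and Cat, the peroxisomal catalase, 5.31. Prdx4, the peroxiredoxin of the endoplasmic reticulum, led its family at 125 FPKM, before Prdx5 (93.2), which acts in mitochondria and peroxisomes, cytosolic Prdx1 (59.7), Prdx6 (48.9), which also cleaves phospholipids, cytosolic Prdx2 (28.5) and mitochondrial Prdx3 (15.1). Txnrd3, the thioredoxin-glutathione reductase known from testis, averaged 185 FPKM. Its relatives Txnrd1 of the cytosol, Txnrd2 of mitochondria and the glutathione reductase gene Gsr averaged 6.87, 1.54 and 4.22.

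Txnrd3 had the smallest spread of any member, a coefficient of variation of 3.88% over the 18 libraries against a median of 10.2% over the 45 members tested and 8.67% over all genes tested. It had 169, 176 and 182 FPKM in HFD-AOS, 189, 182 and 187 in HFD-AOSFMT, 190.3, 181 and 189 in HFD-conFMT, 182, 191 and 198 in HFD, 184, 180.4 and 180.3 in AOS, and 188, 197 and 188 in control. Every control library exceeded every AOS library, and the other pairs compared overlapped. In glutathione synthesis, Gclm, the modifier subunit of the first enzyme, averaged 19.2 FPKM, Gclc, its catalytic subunit, 8.06, and Gss, which adds glycine, 6.95.

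Members averaging under 1 FPKM numbered 7 and were left out of the tests. Gstp2 ranged from 0.15 to 1.77 FPKM and Gpx7, an oxidative folding enzyme of the endoplasmic reticulum, from 0.3 to 1.13. Gsta1 reached 0.44, Gstp3 0.37, Gstm3 0.3, and Gpx5, secreted by the epididymal epithelium, 0.17. Gpx2, the gut peroxidase, was listed at 0 in 17 of 18 libraries. Gsta1 and Gstp2 share over 50% of their 50-base words with other genes, so their low values depend on how such reads were assigned.

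For the comparisons, 1 model over all 18 libraries (limma on log2(FPKM + 1), 13105 genes, Benjamini-Hochberg adjustment) gave log2 fold changes, SE and p-values, and a gene was called at an adjusted p under 0.05. Fold changes on this scale understate those of low genes. With 3 libraries a group, values without overlap were common: between HFD-AOSFMT and HFD-conFMT 10.1% of all genes had none, and 1 gene was called. For HFD-AOS against HFD, AOS against control and HFD against control, the share over all genes is not given. Lack of overlap of a member there has no background and is given only as a description. Of the 45 members tested, 1 was called, Hagh.

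Hagh encodes glyoxalase II, which releases lactate and glutathione from the adduct that Glo1 makes from methylglyoxal, a by-product of glycolysis. It was the only member called between HFD-AOSFMT and HFD, where 3 of 13105 genes (0.0229%) were called, with Kap and Dgcr6 as the others. Hagh had 164.69, 169.56 and 165.57 FPKM in HFD-AOSFMT, against 142.77, 135.44 and 145.81 in HFD. The groups did not overlap, and HFD 2 was the lowest of all 18 libraries. Hagh rose in HFD-AOSFMT by a log2 fold change of 0.24 (SE 0.037, adjusted p = 0.0394 in limma), higher in 3 of 3 libraries. Over the 6 groups its limma F test had an adjusted p of 0.0400, one of 43 calls (0.328% of genes).

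**Figure D2:**
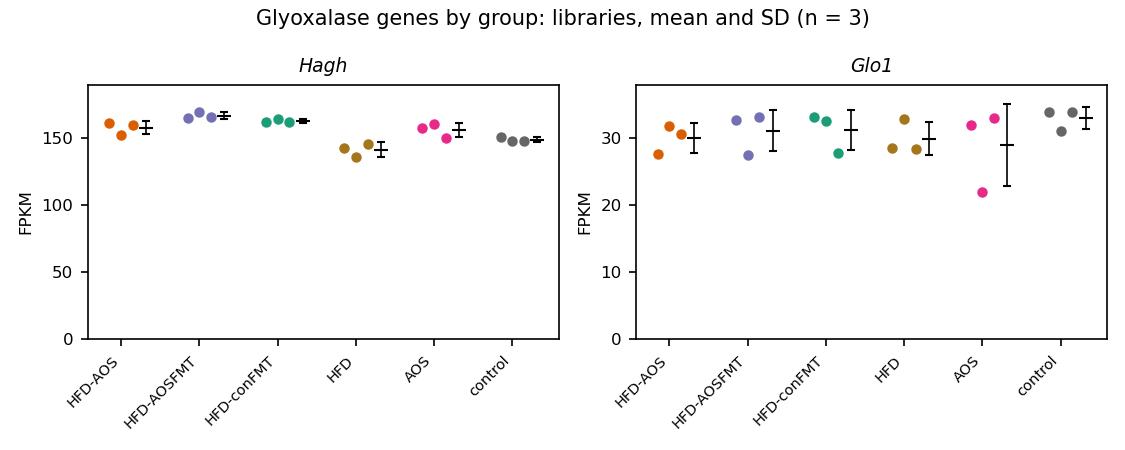
Hagh and Glo1 in FPKM (linear axes from 0) in each library, with the mean and SD of each group of 3 beside its points. Hagh averages 167 in HFD-AOSFMT and 163 in HFD-conFMT, above 141 in HFD, while the Glo1 groups overlap.

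HFD-conFMT libraries held 161.61, 164.38 and 161.81 FPKM of Hagh, and HFD-AOS libraries 161.04, 152.06 and 159.44, again all above HFD. The differences from HFD were 0.20 (SE 0.037, adjusted p = 0.0975) and 0.16 (SE 0.037, adjusted p = 0.215) in limma, and neither was called. Between HFD-AOSFMT and HFD-conFMT the values did not overlap, by 164.69 against 164.38 FPKM, as for 1 of 45 members (2.22%, against 10.1% of all genes), and the difference of 0.03 on the log2 scale was not called. AOS libraries held 157.68, 160.28 and 150.29 FPKM of Hagh, and control libraries 150.65, 147.53 and 148.09. HFD lay below control in every library, with a log2 fold change of -0.07 and an adjusted p of 0.744.

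The Hagh call was close to its threshold. It was lost in 15 of the 18 fits that left out 1 library (log2 fold changes of 0.206 to 0.259 over all 18, adjusted p of 0.03 to 0.346), the exceptions being those without HFD-AOS 1, 2 or 3. It was also lost without control 3 and HFD-conFMT 2 together (0.236, adjusted p = 0.138). The kidney genes of HFD-AOSFMT move with the call, and their part in it was not tested. In HFD-conFMT, Kap was listed at 0 in all 3 libraries. Elongating spermatid genes summed to 55700 to 58100 FPKM in HFD-AOSFMT and 44800 to 57900 in HFD, with HFD 2 lowest as for Hagh, and their part was not tested. Fahd1, whose GENCODE start bounds the stretch shown above, had 5.97 to 8.63 FPKM over all libraries. Glo1, the first enzyme of the route, averaged 31.1 ± 3.11 FPKM in HFD-AOSFMT and 29.9 ± 2.51 in HFD (SD, n = 3 each) and overlapped.

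The rest of the family in the FMT groups was read against the background of all genes. Between HFD-AOSFMT and HFD, values of 10 members were higher with no overlap (22.2%, against 8.34% of all genes), and those of 1 were lower (2.22%, against 8.88%). Besides the kidney genes, the 9 macrophage genes did not overlap, summing to 43.2 to 48.6 FPKM in HFD-AOSFMT and 39.7 to 43 in HFD, and their part was not tested. The 10 members were Hagh, Gpx3, Gpx4, Gpx6, Gsto2, Mgst3, Prdx2, Prdx4, Prdx5 and Prdx6. At an unadjusted p under 0.05, 6 members passed in limma (13.3%, against 9.82% of all genes), 5 of them higher (11.1%, against 5.23%) and 1 lower (2.22%, against 4.59%). The median over the 45 members was 0.04 on the log2 scale, against -0.006 over all genes tested, and 28 lay above 0 (62.2%, against 47.3%).

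Between HFD-conFMT and HFD, 0 members were called in limma (0% of all genes), and 7 passed at an unadjusted p under 0.05 (15.6%, against 12.3%), 6 of them higher (13.3%, against 7%) and 1 lower (2.22%, against 5.26%). Here 10 members were higher with no overlap (22.2%, against 10.3% of all genes) and 0 were lower (against 9.83%). Cell type markers moved with these counts. The adipocyte sums given above stood against 16.9 to 23.5 FPKM in HFD, and the 9 macrophage genes summed to 47 to 52.6 FPKM in HFD-conFMT, against 39.7 to 43 in HFD. Meiotic spermatocyte genes (8 genes) summed to 543 to 562 FPKM in HFD-conFMT, against 591 to 624 in HFD. Summed Sertoli cell genes, at 899 to 937 FPKM against 884 to 894 in HFD, and summed elongating spermatid genes were higher, also without overlap. Taken singly, every Sertoli gene listed overlapped between the groups. Of the elongating spermatid genes, only Prm1 did not, at 16742, 17539 and 15633 FPKM in HFD-conFMT and 14772, 10536 and 15091 in HFD. The part of these cell types was not tested. The 10 members were Hagh, Gpx4, Gpx6, Gstm5, Gstt3, Gstt4, Mgst3, Prdx2, Prdx4 and Prdx6. The members' median was 0.06 on the log2 scale, against -0.002 for all genes, and 30 lay above 0 (66.7%, against 49.2%). Both comparisons use the same 3 HFD libraries, so their likeness is not independent evidence.

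**Figure D3:**
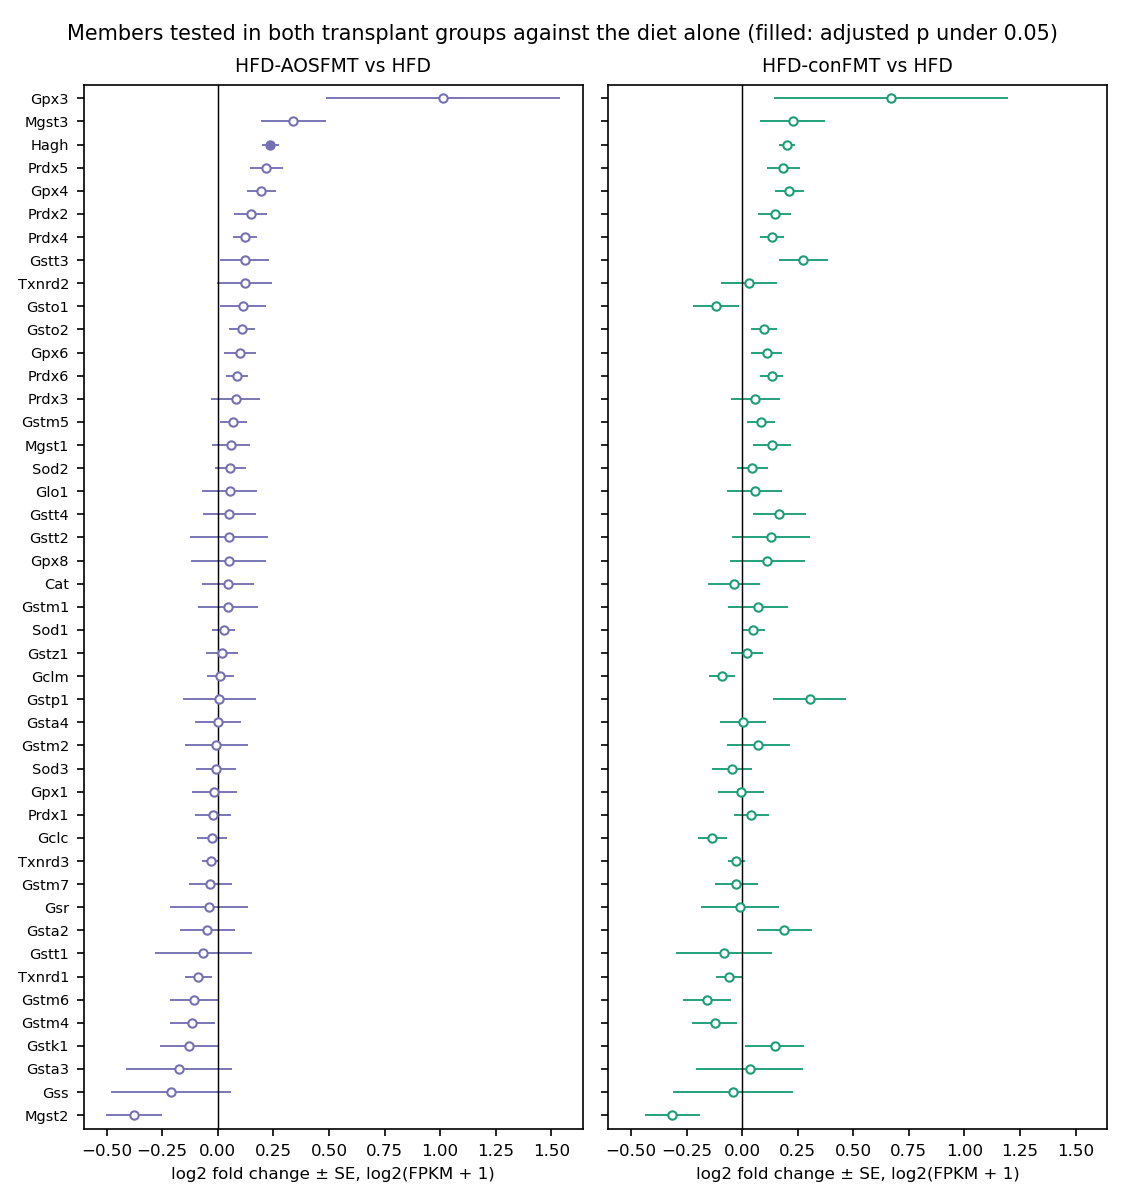
Log2 fold changes with SE of the 45 members tested, HFD-AOSFMT against HFD (left) and HFD-conFMT against HFD (right), in the order of the left panel; both share the HFD libraries. Only Hagh in the left panel is filled, for an adjusted p of 0.0394; Gpx3 has the largest value and the widest SE on both sides, and Mgst2 is lowest.

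Gpx4 had 1425, 1449 and 1447 FPKM in HFD-AOSFMT and 1411, 1469.6 and 1494 in HFD-conFMT, against 1335, 1147 and 1301 in HFD. Both FMT groups lay above HFD without overlap. The log2 fold changes of 0.19 (SE 0.064, adjusted p = 0.384) for HFD-AOSFMT and 0.21 (SE 0.064, adjusted p = 0.227) for HFD-conFMT were not called in limma. Gpx4 also had 1153, 1299.7 and 1404 FPKM in HFD-AOS, and 1357, 1419.7 and 1412 in AOS against 1275, 1199.6 and 1275 in control. AOS lay above control without overlap (0.16, SE 0.064, adjusted p = 0.2501), while HFD-AOS and HFD overlapped. Gpx4 is made mainly in late germ cells. Elongating spermatid genes summed to 58500 to 60200 FPKM in AOS and 47400 to 53500 in control, and to 58800 to 63300 in HFD-conFMT. Prm1, Prm2, Tnp1 and Tnp2, most of these sums, were each higher in AOS than in control without overlap. Akap4 of the same list overlapped, with 822, 910 and 871 FPKM in AOS and 906, 936 and 915 in control. The part of these genes was not tested. A pseudogene, Gpx4-ps2, holds 34.7% of the Gpx4 50-base words.

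Prdx5 had 97, 105 and 101 FPKM in HFD-AOSFMT, 90.9, 101 and 104 in HFD-conFMT, and 93.4, 81.2 and 85.6 in HFD. Only HFD-AOSFMT and HFD did not overlap (0.22, SE 0.073, adjusted p = 0.384 in limma). Reads of Prdx5 may be mixed with those of Trmt112, which overlaps its exons on the other strand. Prdx4 had 141, 129 and 126 FPKM in HFD-AOSFMT, 128, 138 and 133 in HFD-conFMT, and 125, 126 and 113 in HFD. It was higher without overlap in both FMT groups, by 0.12 and 0.13 on the log2 scale (SE 0.055 each), and neither was called.

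Mgst2, a microsomal GST that can make cysteinyl leukotrienes, ran the other way. It had 2.35, 3.59 and 3.28 FPKM in HFD-AOS, 3.53, 2.99 and 2.9 in HFD-AOSFMT, 3.41, 2.53 and 4.16 in HFD-conFMT, and 4.47, 4.58 and 4.06 in HFD. HFD-AOS and HFD-AOSFMT lay below HFD without overlap, and HFD-conFMT overlapped it by 1 library. The differences from HFD were -0.41 in HFD-AOS, -0.38 in HFD-AOSFMT and -0.31 in HFD-conFMT (SE 0.12 each, limma adjusted p = 0.245, 0.384 and 0.345). Txnrd1 had 6.79, 6.09 and 6.95 FPKM in HFD-AOSFMT and 7.15, 7.46 and 6.65 in HFD, which overlapped. Gclc had 7.34, 7.44 and 8.17 FPKM in HFD-conFMT and 8.76, 8.8 and 7.92 in HFD, and overlapped as well.

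Gpx3, the peroxidase that kidney secretes into plasma and that the epididymis also makes, had the widest spread of the members tested, a coefficient of variation of 82.4%; it was singled out after its values were seen. It had 14.3, 6.76 and 6.61 FPKM in HFD-AOS, 19.1, 22.1 and 19.5 in HFD-AOSFMT, 9.2, 36 and 11.3 in HFD-conFMT, 9.64, 12.9 and 6.85 in HFD, 9.57, 9.83 and 8.3 in AOS, and 12.7, 10.8 and 59.4 in control. The highest libraries were control 3 and HFD-conFMT 2, followed by all 3 of HFD-AOSFMT. HFD-AOSFMT did not overlap HFD (log2 fold change 1.01, SE 0.53, adjusted p = 0.553 in limma), and no Gpx3 difference was called.

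Genes of other tissues were high in the same 5 libraries. In control 3 and HFD-conFMT 2, Crisp1, an epididymal secretory gene, reached 159 and 104 FPKM, and Adam7, an epididymal surface protein gene, 8.62 and 4.28. Rnase9, another epididymal gene, had 5.42 and 3.99 FPKM in them and at most 0.36 elsewhere. The other epididymal genes listed, among them Cst8, Rnase10 and Defb21, stayed within the range of the remaining libraries. Epididymal genes summed higher in control 3 and HFD-conFMT 2 than in any other library. Gpx5, a marker of the epididymal head, stayed at 0.17 or less in all 18. In HFD-AOSFMT, Crisp1 was at 0.15 FPKM or less, and the 14 kidney genes summed to 39.1 to 45.3, against 3.19 to 9.1 elsewhere. Most of the HFD-AOSFMT sums was Kap, at 31.5 to 37.7 FPKM. Besides Kap, Slc34a1, the phosphate transporter of the proximal tubule, had 0.81 to 1.25 FPKM there and at most 0.19 elsewhere, and Miox, a proximal tubule oxygenase, 1.05 to 1.49 and at most 0.86. Umod, Slc22a6 and Cyp2j5 were above all other libraries at lower levels, and the other 8 kidney genes were not. The part of either tissue in the Gpx3 values was not tested. Without control 3 and HFD-conFMT 2, the log2 fold change of Gpx3 was -0.28 for HFD against control, in place of -1.02, and 0.09 for HFD-conFMT against HFD, in place of 0.67.

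**Figure D4:**
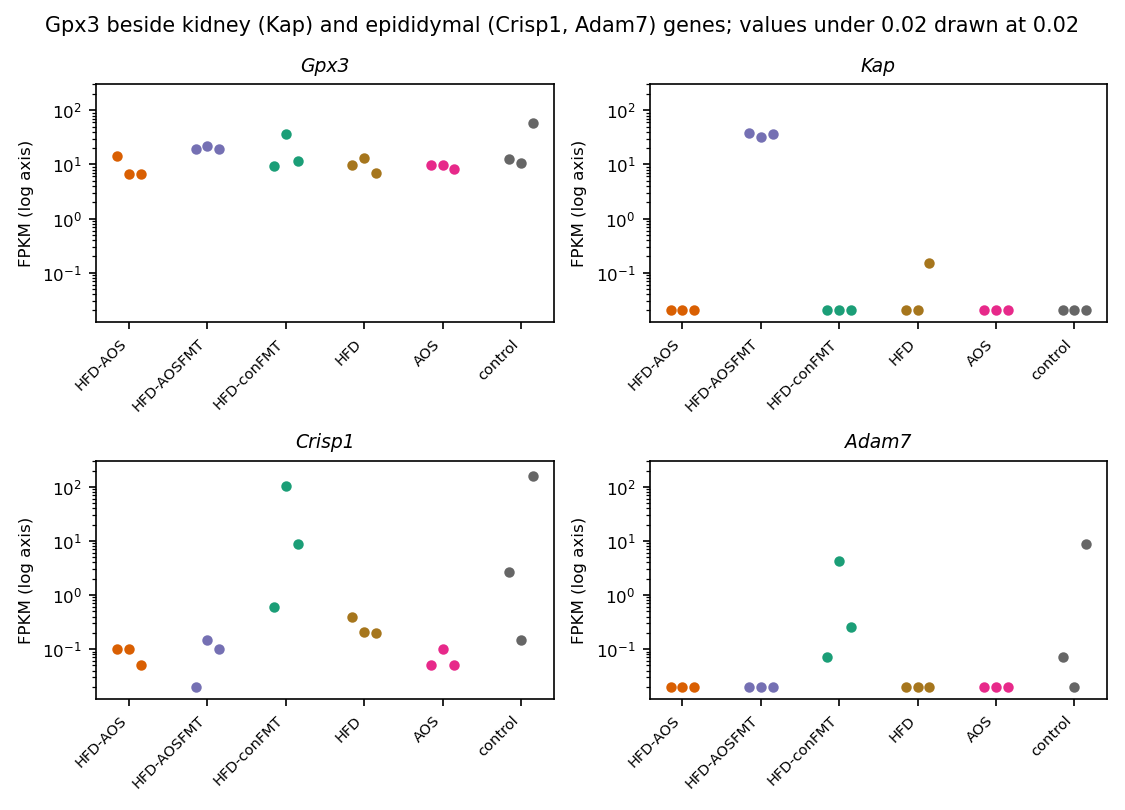
Gpx3, the kidney gene Kap and the epididymal genes Crisp1 and Adam7 in each library by group, in FPKM on log axes, with values under 0.02 drawn at 0.02. Gpx3 is highest in control 3 (59.4) and HFD-conFMT 2 (36), where Crisp1 and Adam7 peak, and is 19.1 to 22.1 in HFD-AOSFMT, where Kap is 31.5 to 37.7.

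With AOS on the high-fat diet, HFD-AOS against HFD, 0 members were called in limma (0% of all genes), and 7 passed at an unadjusted p under 0.05 (15.6%, against 12.7%), 2 of them higher (4.44%, against 4.89%) and 5 lower (11.1%, against 7.81%). Gpx1, the cytosolic peroxidase of most cells, had 18.3, 16.6 and 21.1 FPKM in HFD-AOS, against 26.1, 23.6 and 22.8 in HFD. The groups did not overlap, and HFD-AOS 2 was the lowest of the 18 libraries (-0.36, SE 0.10, adjusted p = 0.227). Mgst3, another microsomal GST, had 10.2, 12.1 and 15.2 FPKM in HFD-AOS, against 9.66, 9.1 and 9.68 in HFD. It was higher in 3 of 3 libraries (0.35, SE 0.15, adjusted p = 0.354). Beside Mgst2, given above, Gclc, Gclm and Txnrd3 were also lower at an unadjusted p under 0.05, with HFD-AOS 1 lowest of the 18 libraries for each. HFD-AOS 1 also had the lowest share of the family in its sum, 0.96%. The 9 macrophage genes summed to 44.1 to 52.2 FPKM in HFD-AOS and 39.7 to 43 in HFD, without overlap, and their part was not tested.

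AOS against control gave 0 called members among 3 called genes (0.0229%), and 7 passed at an unadjusted p under 0.05 in limma (15.6%, against 15.8% of all genes), 3 of them higher (6.67%, against 5.58%) and 4 lower (8.89%, against 10.2%). Gpx6, known from olfactory epithelium, had 54.8, 62.7 and 57.5 FPKM in AOS, against 53.4, 48.7 and 50.5 in control. The groups did not overlap (0.19, SE 0.072, adjusted p = 0.217). Cat had 3.39, 4.99 and 4.68 FPKM in AOS, against 5.67, 5.88 and 5.25 in control, with AOS 1 lowest of the 18 libraries (-0.31, SE 0.12, adjusted p = 0.221). Gsta4 had 48.5, 61.1 and 51.3 FPKM in AOS, against 66.2, 62.5 and 62.5 in control, again with no overlap (-0.25, SE 0.10, adjusted p = 0.255). The 7 Leydig cell genes summed to 2566 to 3501 FPKM in AOS, against 3510 to 4032 in control. The 5 erythrocyte genes summed to 66.4 to 98.8 FPKM in AOS, against 99.8 to 141 in control. Of these genes, Hba-a2 was listed at 0 in all 3 AOS libraries and also in control 2 and control 3. Hba-a1, most of the sums, overlapped by itself, with 59.2, 89.8 and 53 FPKM in AOS and 101.3, 110 and 85.6 in control. Meiotic spermatocyte genes were lower too, at 551 to 595 FPKM in AOS and 601 to 634 in control. The kidney genes summed to 3.88 to 5.07 FPKM in AOS and 6.5 to 9.1 in control. Most of these kidney sums was Aqp2, at 2.37, 2.62 and 3.19 FPKM in AOS and 4.71, 5 and 7.14 in control. Kap was listed at 0 in both groups. Round spermatid genes were higher, at 1682 to 1728 FPKM in AOS and 1628 to 1674 in control, as were spermatogonial genes, at 29.7 to 30.7 in AOS and 28 to 28.9 in control, and the elongating spermatid genes given above. None of these sums overlapped, and the part of these cell types was not tested.

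The diet itself, HFD against control, gave 0 called members in limma (0% of all genes), and 4 passed at an unadjusted p under 0.05 (8.89%, against 6.75%), 3 of them higher (6.67%, against 2.91%) and 1 lower (2.22%, against 3.84%). Sod1 had 306, 324 and 314 FPKM in HFD, against 295, 279.6 and 261 in control. All HFD values were higher (0.18, SE 0.053, adjusted p = 0.598). Gpx6 had 58.6, 57.8 and 56.9 FPKM in HFD and was also above all control libraries (0.18, SE 0.072, adjusted p = 0.691). Mgst2 was likewise above all control libraries, with 4.47, 4.58 and 4.06 FPKM in HFD against 3.41, 3.37 and 3.27 (0.30, SE 0.12, adjusted p = 0.713). Gstt3, a theta class GST, had 19, 19.8 and 18.2 FPKM in HFD, against 20, 22 and 26.3 in control (-0.24, SE 0.11, adjusted p = 0.732). Its values did not overlap, while those of Gstp1, at 74.8, 57.4 and 52 FPKM in HFD and 73, 68.9 and 90.6 in control, did (-0.34, SE 0.16, adjusted p = 0.739). Round spermatid genes summed to 1681 to 1779 FPKM in HFD and 1628 to 1674 in control. The kidney genes summed to 3.82 to 5.4 FPKM in HFD and 6.5 to 9.1 in control. Neither sum overlapped. Aqp2 held most of the kidney sums, at 2.89, 2.06 and 3.43 FPKM in HFD and 4.71, 5 and 7.14 in control. Kap was listed at 0 in all control libraries and at 0.15 or less in HFD. The part of these cell types was not tested.

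**Figure D5:**
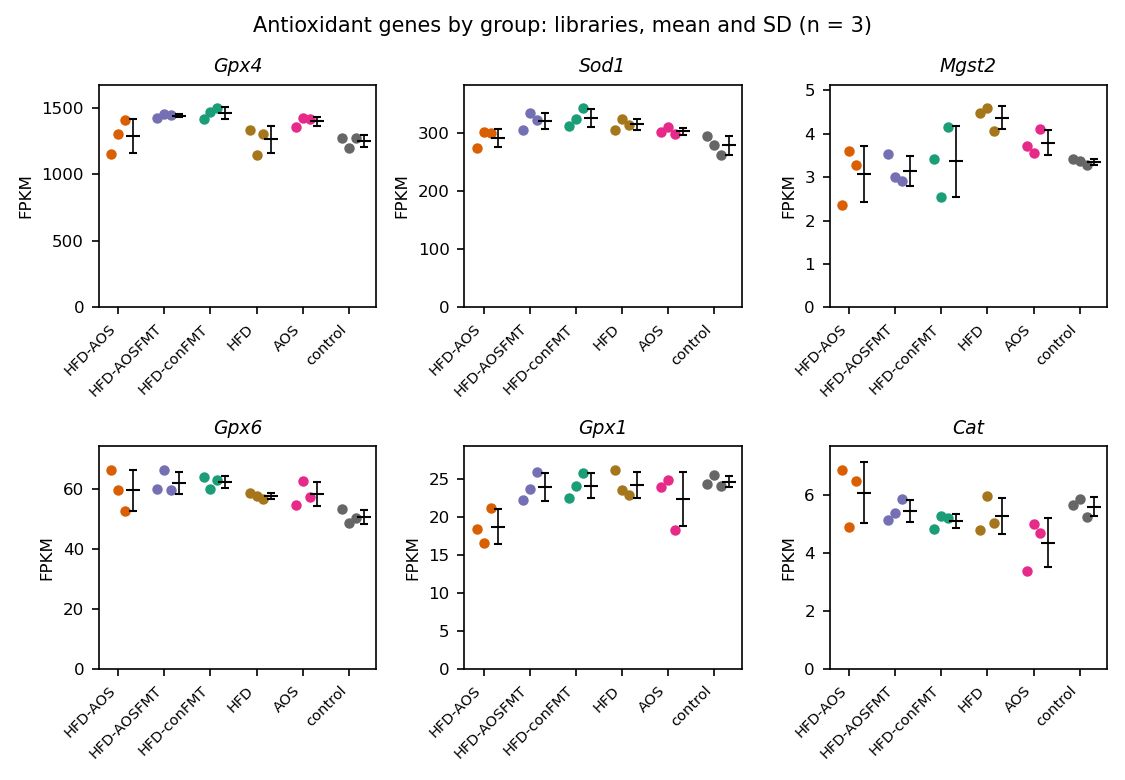
Members Gpx4, Sod1, Mgst2, Gpx6, Gpx1 and Cat in FPKM (linear axes from 0) in each library, with the mean and SD of each group of 3 beside its points. Gpx4 averages 1440 in HFD-AOSFMT and 1460 in HFD-conFMT above 1260 in HFD, Sod1 averages 315 in HFD above 279 in control, and Gpx1 is lowest in HFD-AOS at 18.7; none of these differences was called.

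In the members, both FMT groups were close to each other. Between HFD-AOSFMT and HFD-conFMT, 0 members were called in limma, where Kap was the 1 gene called (0.00763%), and 1 member passed at an unadjusted p under 0.05 (2.22%, against 3.12%). That was Gsto1, the broadly expressed omega class GST, with 4.18, 4.2 and 3.21 FPKM in HFD-AOSFMT and 2.87, 3.14 and 3.37 in HFD-conFMT, which overlapped (0.23, SE 0.10). Gclm had 21.5, 18.9 and 19.7 FPKM in HFD-AOSFMT and 17.6, 19.2 and 19.1 in HFD-conFMT. Gstk1, the GST of mitochondria and peroxisomes, had 9.25, 8.19 and 10.4 FPKM in HFD-AOSFMT and 9.69, 12.1 and 12.7 in HFD-conFMT. Gsta2 had 12.4, 12.9 and 9.6 FPKM in HFD-AOSFMT and 13.4, 15.8 and 12.3 in HFD-conFMT. All 3 genes overlapped between the groups, and each had an adjusted p near 1. Adipocyte genes summed to 14.5 to 25.5 FPKM in HFD-AOSFMT and 34.5 to 41.1 in HFD-conFMT. Elongating spermatid genes summed to 55700 to 58100 FPKM in HFD-AOSFMT and 58800 to 63300 in HFD-conFMT. Kidney genes, in HFD-AOSFMT mostly Kap, summed to 39.1 to 45.3 FPKM in HFD-AOSFMT and 3.19 to 6.45 in HFD-conFMT. None of these sums overlapped, and the part of these cell types was not tested.

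The AOS effect on the high-fat diet was also set against that without the diet, as the difference of the 2 log2 fold changes. None of the members was called in limma (0% of all genes), and 4 passed at an unadjusted p under 0.05 (8.89%, against 6.86%), 2 of them higher (4.44%, against 3.62%) and 2 lower (4.44%, against 3.24%). Cat differed by 0.48 (SE 0.17, adjusted p = 0.679), with 6.87, 4.89 and 6.5 FPKM in HFD-AOS and 4.79, 5.98 and 5.05 in HFD, which overlapped. Gstp1 differed by 0.51 (SE 0.23, adjusted p = 0.727), with 63.2, 75.7 and 63.9 FPKM in HFD-AOS against the HFD values above, and 65.4, 65.3 and 50.03 in AOS. Sod1 and Mgst2 differed in the negative direction, by -0.23 (SE 0.075) and -0.55 (SE 0.18).

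Several of these genes had their extremes in groups outside the comparison that named them. Sod1 had 274, 301 and 300.2 FPKM in HFD-AOS, 306, 334 and 322 in HFD-AOSFMT, 312, 324 and 342 in HFD-conFMT, and 301, 309.9 and 298 in AOS. The control libraries held 2 of the 3 lowest Sod1 values of the 18, and HFD-conFMT 3 the highest. Gpx6 had 66.5, 59.8 and 52.6 FPKM in HFD-AOS, 60.2, 66.5 and 59.6 in HFD-AOSFMT, and 64.1, 60 and 63.2 in HFD-conFMT. Both FMT groups lay above HFD without overlap, and HFD-AOS spread widest. Gpx1 had 22.2, 23.7 and 25.8 FPKM in HFD-AOSFMT, 22.4, 24 and 25.75 in HFD-conFMT, 23.85, 24.8 and 18.25 in AOS, and 24.3, 25.5 and 24 in control. Among these only AOS 3 came down to the level of HFD-AOS. Cat had 5.14, 5.37 and 5.88 FPKM in HFD-AOSFMT and 4.82, 5.27 and 5.2 in HFD-conFMT, and both overlapped HFD.

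Of the GSTs, Mgst2 had 3.71, 3.55 and 4.11 FPKM in AOS, all above 3.41, 3.37 and 3.27 in control. Mgst3 had 10.55, 13.5 and 12.9 FPKM in HFD-AOSFMT, 12.7, 9.8 and 11.5 in HFD-conFMT, 13.1, 10.2 and 11 in AOS, and 11.3, 7.52 and 9.79 in control. Both FMT groups lay above HFD without overlap, while AOS and control overlapped. Gstt3 had 21.3, 16.3 and 18 FPKM in HFD-AOS, 23.3, 19.3 and 19.8 in HFD-AOSFMT, 22.1, 22 and 25.6 in HFD-conFMT, and 21.6, 20.01 and 17.3 in AOS. Of its pairs not yet given, only HFD-conFMT against HFD did not overlap. Gstp1 had 47.2, 62.1 and 77.1 FPKM in HFD-AOSFMT and 73.4, 78.2 and 73.9 in HFD-conFMT, both overlapping HFD, and 33.7% of its 50-base words are shared, mainly with Gstp2. Gsta4 had 51, 66.6 and 57.2 FPKM in HFD-AOS, 56.6, 64.3 and 64 in HFD-AOSFMT, 59.1, 57.6 and 68.8 in HFD-conFMT, and 66.8, 62.7 and 55.35 in HFD. These groups overlapped.

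Gsto1 had 4.14, 3.91 and 3.66 FPKM in HFD-AOS, 3.59, 3.27 and 3.58 in HFD, 3.48, 3.74 and 3.32 in AOS, and 4.85, 3.54 and 3.36 in control. HFD-AOS lay above HFD in all 3 libraries, and AOS overlapped control. Gstk1 had 10.1, 8.87 and 9.6 FPKM in HFD-AOS, 11.2, 9.42 and 10.1 in HFD, 7.16, 10.6 and 7.97 in AOS, and 8.23, 10.6 and 8.23 in control. Gsta2 had 15.1, 12.8 and 14.2 FPKM in HFD-AOS, 13.1, 13.2 and 9.91 in HFD, 12.4, 14.4 and 13.4 in AOS, and 12.7, 10.2 and 11.1 in control. Both overlapped in each pair compared, and 49.8% of the Gsta2 50-base words occur in other genes.

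Of the reductase and glutathione synthesis genes, Txnrd1 had 6.26, 6.45 and 6.52 FPKM in HFD-AOS, below all HFD libraries, 6.52, 6.71 and 7.06 in HFD-conFMT, 7.14, 6.79 and 6.55 in AOS, and 6.99, 7.74 and 7.92 in control. Gclc had 6.74, 7.73 and 8.11 FPKM in HFD-AOS, 7.81, 8.2 and 8.95 in HFD-AOSFMT, 7.47, 7.92 and 7.91 in AOS, and 8.6, 8.76 and 8.41 in control. Gclm had 16.4, 19.1 and 18.2 FPKM in HFD-AOS, 20.4, 18.85 and 20.35 in HFD, 19, 18.6 and 18.8 in AOS, and 19.8, 20.65 and 19.3 in control. Both subunit genes were lower in AOS than in control without overlap, and neither was called.

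Gsta3 had group means of 17.4 FPKM in HFD-AOS, 21.1 in HFD-AOSFMT, 24.8 in HFD-conFMT, 24 in HFD, 24.4 in AOS and 32.3 in control. It had 25.9, 26.5 and 19.5 FPKM in HFD and 26.2, 25.2 and 21.7 in AOS, against 26.9, 28.4 and 41.5 in control. Every control library lay above every HFD and AOS library, and limma called neither difference (-0.40, SE 0.24, adjusted p = 0.782 for HFD, and -0.37, SE 0.24, adjusted p = 0.468 for AOS).

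The other members not given by library are described by the range of their 6 group means. These were 7.19 to 8.63 FPKM for Gstm4, 26.5 to 30.7 for Gstm6 and 44.3 to 50.9 for Gstm7, all mu class GSTs. They were 31 to 32.8 for Gstz1, which isomerises maleylacetoacetate in tyrosine breakdown, 134 to 155 for Gsto2, 32.7 to 39.1 for Mgst1, the main microsomal GST, and 3.86 to 4.52 and 19.2 to 23.7 for the theta class Gstt1 and Gstt2. Among the other enzymes, group means were 2.78 to 3.2 FPKM for Gpx8 of the endoplasmic reticulum, 55.6 to 63.2 for Prdx1, 27.2 to 30.3 for Prdx2, 14.1 to 15.8 for Prdx3, 45.8 to 52.4 for Prdx6, 30.5 to 34.3 for Sod2 and 18.2 to 20.8 for Sod3. They were 1.41 to 1.84 for Txnrd2, 3.5 to 4.54 for Gsr and 6.09 to 7.56 for Gss. None of these was called in limma in any comparison.

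Genes that work with the family gave no call. Of 57 further genes in 4 lists, 52 could be tested, and 0 passed the adjusted threshold in limma in any comparison or in the F test. They comprised 13 thioredoxins and glutaredoxins, 15 Nrf2 regulators and targets, 13 genes of glutathione turnover and NADPH supply, and 11 of methionine sulfoxide repair and other redox work. At an unadjusted p under 0.05, 2 were higher in AOS against control (3.85%, against 5.58% of all genes) and 8 lower (15.4%, against 10.2%). Among the lower ones were Nqo1, a quinone reductase and Nrf2 target, and Txn1, the cytosolic thioredoxin. In HFD-AOSFMT against HFD, 3 were higher at that p (5.77%, against 5.23%) and 2 lower (3.85%, against 4.59%). In HFD-conFMT against HFD, 5 were higher (9.62%, against 7%) and 1 lower (1.92%, against 5.26%). Glrx5, a mitochondrial glutaredoxin, Ftl1, the ferritin light chain, and Chac1, which degrades glutathione, were higher in both comparisons, which share the HFD libraries. In HFD-AOS against HFD, 1 was higher (1.92%, against 4.89%) and 3 lower (5.77%, against 7.81%). In HFD against control, 2 were higher (3.85%, against 2.91%) and 2 lower (3.85%, against 3.84%). Between the FMT groups 2 passed in all (3.85%, against 3.12%), both lower in HFD-AOSFMT.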

How the data were processed

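Expression was measured by RNA sequencing of 18 libraries from frozen mouse testis. Bowtie 0.12.2 and the mm10 genome are named, per the submitters' processing notes. The counting tool, annotation and strand handling are not given in these sources. The authors deposited a single table (20985 rows) whose values were read as FPKM, since low values step with transcript length. Without counts, no counting interval can be given. Symbols that occur more than once (6 rows) were dropped.

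The members and gene lists were chosen with earlier results of these data known, and the kidney list after its genes were seen. A mean of at least 1 FPKM was required of a gene, which left 13105. One limma 3.58.1 trend model (R 4.3.3) with 1 mean for each of the 6 groups, on log2(FPKM + 1) with 12 residual degrees of freedom, gave two-sided tests with Benjamini-Hochberg adjustment over these genes. It was tested on simulated data whose changes were all larger than that of Hagh, so changes as small as that of Hagh were not covered. Members were named where called, where they had one of the 2 smallest p-values in a direction of a comparison, or where they were among the 8 highest. Others named were chosen after their values were seen. Coordinates and 50-base words came from the GENCODE vM21 annotation of GRCm38 (mm10), sequences from RefSeq GRCm38.p6. Alternatives covered pseudocount, filter, scaling, weights, replicate block, groups in the fit and libraries left out. Figures were drawn with matplotlib 3.10.9.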

Additional observations from a re-analysis of the deposited data

Results flagged for a closer look

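Sod1 was lower in HFD-AOS than in HFD and higher in AOS than in control, in both cases without overlap of libraries. The closest values were 301.35 against 305.72 FPKM with the diet and 297.52 against 294.91 without it. HFD-AOS libraries had 274, 301 and 300.2 FPKM, all below the HFD libraries at 306, 324 and 314, while AOS libraries had 301, 310 and 298, all above the control libraries at 295, 279.6 and 261. The difference of the 2 effects was -0.231 on the log2 scale, with a limma p of 0.00706 before and 0.641 after adjustment over all genes.

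Mgst2 showed the same arrangement. HFD-AOS libraries had 2.35, 3.59 and 3.28 FPKM, below HFD at 4.47, 4.58 and 4.06, and AOS libraries had 3.71, 3.55 and 4.11 FPKM, above control at 3.41, 3.37 and 3.27. The difference was -0.548, with a limma p of 0.00706 before and 0.641 after adjustment. Among the 45 members tested, Sod1 and Mgst2 had the smallest limma p-values for this difference, and neither was called. The share of all genes with the same arrangement was not counted.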

How the results depend on the processing

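The rise of Hagh in HFD-AOSFMT against HFD kept its direction in every alternative, and its adjusted p stayed under 0.05 with a pseudocount of 0.1, no filter, a mean of at least 5 FPKM and array weights. It passed the threshold no longer with quantile normalization (0.209, adjusted p = 0.0826), libraries rescaled to one total (0.203, 0.0599), only the groups compared (0.236, 0.331), without control 3 and HFD-conFMT 2 (0.236, 0.138) and with a replicate block (0.236, 0.0987). The causes were not tested. Leaving out each library in turn gave 0.206 to 0.259. The number of members called in HFD-AOSFMT against HFD fell to 0, from 1, in those 5 settings, and ranged from 0 to 1 over the libraries left out. The F test gave 0 members, in place of 1, with quantile normalization, rescaling, the replicate block and without the 2 libraries. Its call was also lost in 15 of the 18 fits that left out 1 library, the exceptions being those without HFD-AOS 1, HFD-AOS 3 or AOS 2. In HFD-conFMT against HFD, 1 member was called, in place of 0, with array weights (Hagh, 0.191, adjusted p = 0.0412), and 0 to 1 over single omissions, the 1 being Hagh without HFD-AOS 1. No clear pairing by replicate number was seen: over 45 same-number pairs the correlation of deviations ran from -0.243 to 0.167, with 2 above 0.1. Over 90 pairs of different number it ran from -0.336 to 0.317, with 3 above 0.1. Whether libraries share animals or batches was not tested. The replicate block changed no other call of a member. Over all genes the number called varied more: from 1 to 26 in HFD-AOSFMT against HFD (26 without a filter, 3 as reported), 0 to 240 in AOS against control (240 with array weights, 3 as reported), 0 to 17 in HFD-conFMT against HFD (17 without HFD-AOS 1, 0 as reported), 1 to 16 between the FMT groups (16 without a filter, 1 as reported), 0 to 4 in HFD-AOS against HFD, and 1 to 146 in the F test (43 as reported, 1 without control 3 and HFD-conFMT 2).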
